A study of Mus musculus with 2 samples.

Results

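The 7 genes described here are Ccl17, Ccl22, Ccr7, Ccr4, Fscn1, Cacnb3 and Il4i1. They were chosen by symbol, as genes linked to dendritic cell migration, from the 27998 genes of the deposited count matrices. They were measured by droplet single-cell RNA sequencing in CD45+ leukocytes sorted from tumours of B16, a mouse melanoma line, taken 14 days after implantation from female C57BL/6 mice 5 weeks of age. One library came from Foxp3Cre-YFP mice, called control below, and the other from Nrp1L/LFoxp3Cre-YFP mice, called Nrp1L/L. Both genotypes carry the Foxp3-driven Cre-YFP allele, so Cre is made in Foxp3-expressing regulatory T cells and not, by design, in dendritic cells. The labels do not say how many mice stand behind a library, and with 1 library per genotype, genotype and library cannot be told apart. The series title places the samples in a study of how regulatory T cells act on tumour macrophages.

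Dendritic cells that have taken up antigen in a tissue can mature, express the receptor CCR7 and follow its ligands CCL19 and CCL21 to draining lymph nodes; Fscn1, which bundles actin, is a classical gene of that mature state. CCL17 and CCL22 are both ligands of CCR4, a receptor of T helper type 2 cells, regulatory T cells and skin-homing T cells. Cacnb3 encodes a beta subunit of voltage-gated calcium channels, and Il4i1 a secreted L-amino acid oxidase that acts mainly on phenylalanine.

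Ccl22 and Ccl17 are near neighbours on chromosome 8 of GRCm38 (GENCODE vM21), both on the plus strand. Ccl22 lies at chr8:94745590-94751699 and Ccl17 at chr8:94810453-94812036, with 58753 bases, Cx3cl1 and the pseudogene Gnb1-ps3 between them. Ccr4 lies at chr9:114490316-114504916 and Ccr7 at chr11:99144196-99155077, both on the minus strand. On the plus strand, Fscn1 lies at chr5:142960343-142973185, Cacnb3 at chr15:98630840-98644529 and Il4i1 at chr7:44816387-44840809. Il4i1 overlaps Nup62 on its own strand and Atf5 and Tbc1d17 on the other, so its counts are less certain than those of the other 6, which overlap no gene. Most Ccl22 and Fscn1 molecules were found in the same cells and much of Ccl17 in others, so these 3 genes were taken here. Shown are the 250 bases before the RefSeq start site, which for Ccl22 and Fscn1 run past the GENCODE start given above. They are RefSeq sequences of GRCm38.p6 on the plus strand, 5′ to 3′, at chr8:94810203-94810452, chr8:94745434-94745683 and chr5:142960105-142960354, with motif matches in capitals.
Ccl17: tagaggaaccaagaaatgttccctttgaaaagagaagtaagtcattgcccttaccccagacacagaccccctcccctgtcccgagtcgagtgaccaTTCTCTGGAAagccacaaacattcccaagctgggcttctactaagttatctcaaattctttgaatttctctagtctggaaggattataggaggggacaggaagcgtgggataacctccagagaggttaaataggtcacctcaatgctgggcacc
Ccl22: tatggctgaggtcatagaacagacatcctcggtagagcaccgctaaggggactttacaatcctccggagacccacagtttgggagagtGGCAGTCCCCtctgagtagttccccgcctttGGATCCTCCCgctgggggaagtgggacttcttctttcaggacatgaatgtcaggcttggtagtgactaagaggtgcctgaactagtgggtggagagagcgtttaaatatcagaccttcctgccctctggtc
Fscn1: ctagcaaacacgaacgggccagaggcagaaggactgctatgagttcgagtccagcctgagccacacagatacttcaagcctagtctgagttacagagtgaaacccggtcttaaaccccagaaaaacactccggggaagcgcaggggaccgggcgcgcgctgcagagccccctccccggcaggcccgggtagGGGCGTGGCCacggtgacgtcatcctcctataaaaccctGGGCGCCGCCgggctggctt
The capitals in Ccl17 mark a palindrome of the kind bound by STAT6, TTC and GAA with 4 bases of any kind between them, which 5.85% of the 32851 promoters in the table hold. Those in Ccl22 and Fscn1 mark short NF-kB motifs, GGG and CC with 5 bases of any kind between them, on either strand, which 45.8% of promoters hold. That motif was also found in Il4i1 and in both windows of Cacnb3, with overlapping matches in Il4i1 and in 1 Cacnb3 window, and not in the windows of Ccl17 and Ccr4. TGANTCA, the AP-1 motif, was found in Ccr4 and is held by 6.75% of promoters. A composite ETS and IRF motif, GGAA and GAAA with 2 bases between them, is held by 2.30% of promoters and was found in none of the 6 members matched to the table. A match says only that the letters are present.

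After removal of probable doublets the libraries held 1302 control and 1275 Nrp1L/L cells, with medians of 8056.5 and 5332 unique molecular identifiers (UMIs, each standing for 1 captured RNA molecule) per cell. Nrp1, the floxed gene, had 31 UMIs in control and 15 in Nrp1L/L Treg-like cells, 47.2 (32.1 to 67.0) and 26.3 (14.7 to 43.3) counts per 1000000 UMIs (CPM), and those intervals overlap. Treg-like cells were set by Il2ra and Ikzf2, and Foxp3 was found in 2 of 75 such control cells and 2 of 102 in Nrp1L/L. Cells were placed in gates by UMIs of marker genes, and a cell may pass several. The cDC2 gate, for type 2 conventional dendritic cells, takes Cd209a plus Flt3 of at least 2 and held 77 control and 35 Nrp1L/L cells. The cDC1 gate, for type 1 cells, takes Xcr1 plus Clec9a of at least 1 and held 37 and 9. Monocytes, with Lyz2 of at least 10 and summed C1q under 10, numbered 331 and 143, and T cells, with summed CD3 genes of at least 2, numbered 452 and 766. All 95% intervals below are exact Poisson intervals for levels, Clopper-Pearson for shares, and cover counting error only, not the spread between mice. Intervals of levels and ratios also leave out the spread between cells, and are too narrow where most UMIs lay in few cells.

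The cDC2 gate did not hold the same mixture of cells in both libraries. Its summed cDC2 markers stood at 2464 CPM in control and 2311 CPM in Nrp1L/L. That sum includes Cd209a and Flt3, which set the gate, so it cannot show that the gate was alike in both. The summed monocyte markers of the gate stood at 5649 and 26123 CPM. 18 of 77 control cells and 21 of 35 Nrp1L/L cells of the gate also passed the monocyte gate. In the cDC1 gate 4 of the 9 Nrp1L/L cells also passed the macrophage gate, and summed macrophage markers stood at 1370 CPM in control and 14754 CPM in Nrp1L/L. The summed cDC1 markers there, which include the gate genes Xcr1 and Clec9a, were 4648 and 1686 CPM, with Itgae and Tlr3 at 0 in Nrp1L/L. In Nrp1L/L the gate thus held more macrophage than cDC1 marker UMIs, and its name is that of the gate rule. Basophil markers were at 0 in the cDC2 gate of both libraries.

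Of the chemokines, Ccl17 had its highest level in the cDC2 gate of the control library. Ccl17 was counted 672 times in those 77 cells, at 749.5 CPM (694 to 808), 94 times in the cDC1 gate, at 204 CPM, 107 times in macrophages, at 35.4 CPM, and 21 times in monocytes, at 7.66 CPM. It was thus 97.9-fold higher in the cDC2 gate than in monocytes, and the cDC1 gate was below the cDC2 gate, with a log2 ratio of -1.87 (-2.20 to -1.56). Of the 21 monocyte UMIs, 18 were in Cd209a cells that also passed the cDC2 gate, so these count on both sides of the fold. Ccl22 spread more evenly, at 116 CPM in the cDC2 gate, 120 CPM in the cDC1 gate, 133 CPM in cells of no gate and 5.10 CPM in monocytes. Its log2 ratio of cDC1 over cDC2 was 0.04 (-0.45 to 0.53), so the neighbouring dendritic gates could not be told apart for Ccl22. The cDC1 values rested on few cells: 46 of the 55 Ccl22 UMIs were in 1 cell. Of the 94 Ccl17 UMIs there, 62 were in 1 cell and 30 in another. In addition, 10 of the 37 cDC1 cells also passed the cDC2 gate.

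The receptor Ccr7 and the genes Fscn1, Cacnb3 and Il4i1 had their highest control levels in cells of no gate. Ccr7 stood at 822 CPM there, 378 CPM in the cDC2 gate, 252 CPM in the cDC1 gate, 117 CPM in T cells and 21.5 CPM in monocytes. Fscn1 followed the same order, at 457, 225, 189, 40.5 and 1.82 CPM. The log2 ratio of no gate over cDC2 was 1.12 for Ccr7, 1.02 for Fscn1, 0.89 for Cacnb3, 0.79 for Il4i1 and 0.19 for Ccl22, against -3.15 for Ccl17. Plasmacytoid cells held 3 UMIs of Ccr7 in control and 1 in Nrp1L/L, and none of the other 6 genes. Natural killer cells, which should lack most of these genes, held 0 UMIs of Fscn1 in both libraries, 1 and 0 of Ccl17, 0 and 1 of Ccl22, 2 and 0 of Cacnb3, 2 and 13 of Il4i1, 12 of the 13 in 1 cell, and 16 and 21 of Ccr7.

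Every member except Ccr4, which had 0 UMIs in both gates, was higher in the cDC2 gate than in monocytes of the control library. The ratio was 22.7-fold for Ccl22, 17.6-fold for Ccr7 and 124-fold for Fscn1. Cells that passed both gates count on both sides. Those with Cd209a held 7 of the 14 Ccl22 and 17 of the 59 Ccr7 UMIs of control monocytes. For Cacnb3 and Il4i1, with 2 and 3 UMIs in monocytes, the log2 ratios were 5.70 (3.74 to 8.80) and 5.49 (3.85 to 7.82), and 26.1% of all measured genes were at least 1.5-fold higher there. In the Nrp1L/L library monocytes held 2 UMIs of Ccr7 and 1 each of Fscn1 and Il4i1, so the ratios have wide intervals. Their log2 values were 7.90 (6.03 to 10.96) for Ccr7, 8.52 (6.01 to 13.83) for Fscn1 and 7.31 (4.76 to 12.64) for Il4i1, with 22.5% of genes at least 1.5-fold higher. Ccl22 was at least 19.4-fold and Cacnb3 at least 11.9-fold higher, since monocytes had 0 UMIs of either and the bound takes 3 counts over the gate. Ccl17 differed from the others in Nrp1L/L: 1 UMI in the cDC2 gate and 11 in monocytes gave a log2 ratio of -1.76, with an interval from -7.19 to 1.02.

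Within the control cDC2 gate, most Ccl17 lay in cells with Cd209a, the lectin that marks part of the cDC2 cells. Most UMIs of Ccr7, Fscn1, Cacnb3 and Il4i1 lay in cells without it. Such cells pass the gate by Flt3, a growth factor receptor of dendritic cells, so a link with Flt3 cannot be read here. The 60 control cells with at least 2 UMIs of Cd209a held 647 of the 672 Ccl17 UMIs, at 962 CPM, in 19 cells, beside 58 UMIs of Ccr7 and 11 of Fscn1. The 16 control cells with at least 2 UMIs of Flt3 and no Cd209a held 25 of Ccl17, but 281 of Ccr7, 191 of Fscn1, 49 of Ccl22, 31 of Cacnb3 and 39 of Il4i1. In Nrp1L/L the 27 Cd209a cells held 1 UMI of Ccl17, 20 of Ccr7, 0 of Fscn1 and 23 of Il4i1, and the 7 Flt3 cells without Cd209a held 128 of Ccr7, 113 of Fscn1, 16 of Ccl22 and 26 of Il4i1, so Il4i1 lay with both.

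Between genotypes, Ccl17 differed most among the 6 members measured in the cDC2 gate, with 672 UMIs in control and 1 in Nrp1L/L. The levels were 749.5 and 2.77 CPM (0.0702 to 15.5 for the latter), a log2 ratio of -8.08 (-13.4 to -5.59). It was detected in 22 of 77 control cells, 28.6% (18.8 to 40.0), and in 1 of 35 Nrp1L/L cells, 2.86%, a difference of -25.7 percentage points (-36.9 to -11.0). With each cell thinned to 2500 UMIs, to level the depth, the shares were 21.9% and 0.571%. The control UMIs were unevenly spread: the 3 highest cells held 267, 81 and 53, so 1 cell held 39.7%. Without the highest cell of each library 405 UMIs stood against 0, a log2 ratio of -5.74 or lower.

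Cells that passed both the cDC2 and the monocyte gate held little Ccl17 in either library, and they made up more of the Nrp1L/L gate. Among cells with at least 2 UMIs of Cd209a outside the monocyte gate, Ccl17 was in 17 of 45 control cells, 37.8% (23.8 to 53.5), and in 0 of 7 Nrp1L/L cells, which allows a share of up to 42.9%. The counts were 629 UMIs, 1260 CPM (1163 to 1362), and 0, where 3 counts would be 41.0 CPM. Inside the monocyte gate it was in 2 of 15 control cells, 13.3% (1.66 to 40.5), and in 1 of 20 Nrp1L/L cells, 5% (0.127 to 24.9), with 18 UMIs, 104 CPM (61.6 to 164), and 1 UMI, 5.03 CPM (0.127 to 28.0). The median Lyz2 count of cells inside it was 43 in control and 252 in Nrp1L/L. The makeup of the gate thus moved with genotype beside Ccl17, and its part in the difference was not tested. Within either kind of cell the intervals of the shares overlapped and those of the levels did not, and 17 of the 18 UMIs inside the monocyte gate were in 1 cell.

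Ccl22 was also lower in Nrp1L/L, and the others differed less or the other way. Ccl22 had 104 and 18 UMIs, 116 and 49.9 CPM, a log2 ratio of -1.22 (-2.03 to -0.49), with 14 of the 18 in 1 cell. It was -2.89 without the highest cell of each library and -0.063 with every gate minimum raised, short of 1.5-fold. Ccr7 had 339 and 148 UMIs, 378 and 411 CPM, a log2 ratio of 0.12 (-0.17 to 0.40) that includes no difference, with 90 of the 148 in 1 cell. The Ccr7 ratio turned to -0.73 without the highest cell of each library and to -0.95 in cells of exactly 1 gate. Cacnb3 had 34 and 11 UMIs with a log2 ratio of -0.31, short of 1.5-fold. Fscn1 had 202 and 113 UMIs, 225 and 314 CPM, a log2 ratio of 0.48 (0.13 to 0.82), but 92 of the 113 were in 1 cell and without the highest cell of each library the ratio was -1.15. Il4i1 was the only member past 1.5-fold upwards, with 44 and 49 UMIs, 49.1 and 136 CPM, a log2 ratio of 1.47 (0.85 to 2.09), and 24 and 21 of the 49 in 2 cells. In all, 1 of 6 measured members was at least 1.5-fold higher in Nrp1L/L and 2 were lower, where 21.5% of 5293 genes were higher and 21.4% lower.

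In the cDC1 gate 3 of 6 measured members were at least 1.5-fold higher in Nrp1L/L and 0 lower, against 25.5% of all genes higher and 28% lower, but the values rested on few cells. Ccr7 had 116 UMIs in control and 90 in the 9 Nrp1L/L cells, 252 and 706 CPM, a log2 ratio of 1.49, and all 90 lay in 1 cell that also passed the cDC2 gate. Fscn1 had 87 and 92 UMIs, a log2 ratio of 1.93, in that same cell. Il4i1 had 16 and 26, a log2 ratio of 2.55, with 24 of the 26 in that cell too. Ccl17 had 94 and 32, the 32 being in 1 other cell that also passed the macrophage gate. Without the highest cell of each library the log2 ratio was -2.02 or lower for Ccr7 and -1.81 or lower for Fscn1.

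In monocytes 2 members were measured, and Ccr7, with 59 UMIs in control and 2 in Nrp1L/L (21.5 and 1.71 CPM, log2 -3.65), was lower, against 15.5% of all genes higher and 18.4% lower. Of the 59 control UMIs, 29 were in 1 cell with 3 members and 16 in a Cd209a cell that also passed the cDC2 gate. Over all cells Ccl17 had 910 and 73 UMIs (log2 -3.08), Ccl22 454 and 98 (-1.65), Cacnb3 175 and 45 (-1.40), Fscn1 959 and 288 (-1.18), Ccr7 1858 and 564 (-1.16) and Il4i1 196 and 127 (-0.07). Thus 5 of 6 members were at least 1.5-fold lower and 0 higher in the whole Nrp1L/L library, against 15.2% of genes lower and 15.3% higher. Cells of the dendritic gates were also fewer there: 104 of the 1302 control cells and 41 of the 1275 Nrp1L/L cells passed either gate, 7.99% and 3.22%. Of these, 24 in control and 21 in Nrp1L/L also passed the monocyte gate.

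The places of the UMIs set Ccl17 apart from the rest. In control the cDC2 gate held 73.8% of Ccl17 UMIs, against 22.9% of Ccl22, 21.1% of Fscn1 and 18.2% of Ccr7. Cells of no gate held 52.1% of Fscn1, 48.4% of Ccr7 and 31.9% of Ccl22. The cDC2 gate made up 5.91% and no gate 9.83% of the control cells. In Nrp1L/L the cDC2 gate held 1.37% of Ccl17 and 39.2% of Fscn1, no gate held 80.6% of Ccl22, and T cells held 58.3% of Ccr7. Of the Nrp1L/L cells the cDC2 gate held 2.75%, no gate 7.76% and the T cell gate 60.1%, close to its share of Ccr7. The 80.6% of Ccl22 was 79 UMIs in 3 cells.

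**Figure D1:**
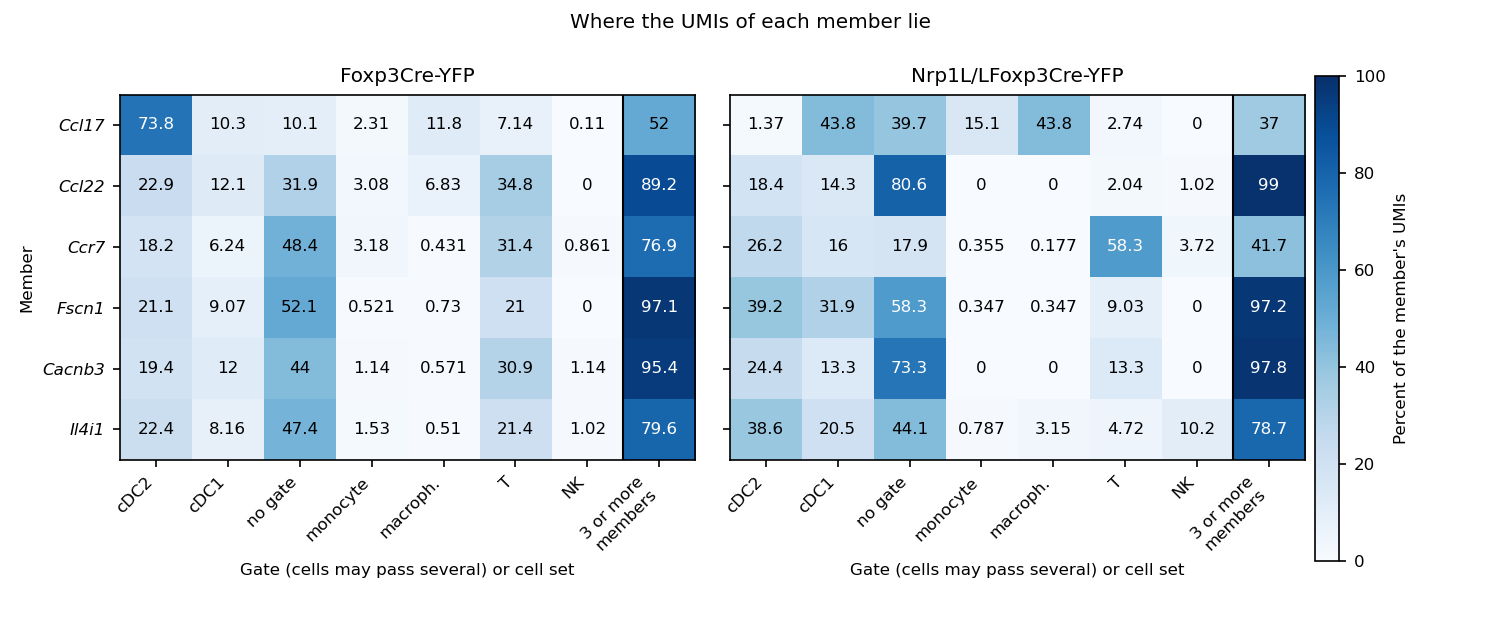
Percent of each member's UMIs that lies in each gate (cells may pass several) and in cells holding at least 3 members, for the control and Nrp1L/L libraries. In control 73.8% of Ccl17 UMIs lie in the cDC2 gate, against 22.9% of Ccl22, and 97.1% of Fscn1 UMIs lie in cells with 3 or more members.

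Ccr7, Ccl22, Fscn1, Cacnb3 and Il4i1 were found together in a small set of cells. In control 43 of 1302 cells held at least 3 of the 7 members, 3.30% (2.40 to 4.42), and in Nrp1L/L 10 of 1275, 0.784% (0.377 to 1.44), a difference of -2.52 percentage points (-3.69 to -1.45). Thinned to 2500 UMIs the shares were 2.67% and 0.647%. Within the dendritic gates the shares were 11 of 104 and 3 of 41, 10.6% and 7.32%, and their difference of -3.26 points has an interval from -12.1 to 9.68. Because the set was picked by the members themselves, high shares and frequent detection of members in it follow in part from that rule. The control cells of the set held 97.1% of all Fscn1, 95.4% of Cacnb3, 89.2% of Ccl22, 79.6% of Il4i1 and 76.9% of Ccr7 UMIs, but 52% of Ccl17. In the 10 Nrp1L/L cells lay 97.2% of Fscn1 and 99% of Ccl22, but 41.7% of Ccr7 and 37% of Ccl17.

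Of the 43 control cells Ccr7 was in 42, with a median of 30 UMIs, and Fscn1, Ccl22 and Cacnb3 were in 36 each, with medians of 17, 6 and 3. Il4i1 was in 32, Ccl17 in 22 and Ccr4 in 1. Markers that define the dendritic gates were rare in them: Cd209a was in 3, Flt3 in 14, Xcr1 and Clec9a in 1 each, and Siglech, of plasmacytoid cells, in 0. Accordingly 22 of the 43 passed no gate, 11 a dendritic gate, 9 others the T cell gate and 1 other the monocyte gate. Of the 10 Nrp1L/L cells, 3 passed a dendritic gate and 7 none, and Ccr7 was in 10, Il4i1 in 9, Fscn1 and Cacnb3 in 8 each, Ccl22 in 6 and Ccl17 in 3. One of the 22 control cells of no gate was a barcode of 84144 UMIs with 204 of Mlana and 222 of Dct, which are melanocyte genes, 0 of the leukocyte gene Ptprc and 1 each of Ccl22 and Ccr7; without it 42 control cells remained, 3.23%.

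Ccl17 was found both in these cells and apart from them. Of the 44 control cells with Cacnb3, 36 held Ccr7 (81.8%) and 34 Fscn1 (77.3%), against 12.7% and 4.45% of all control cells. Of the 51 with Ccl22, 36 held Ccr7 (70.6%) and 31 Fscn1 (60.8%). Of the 56 with Ccl17, 25 held Ccr7 (44.6%), 22 Ccl22 (39.3%) and 19 Fscn1 (33.9%). The 56 divided into 34 cells with at most 1 other member, which held 437 Ccl17 UMIs and of which 18 held Cd209a and 0 Fscn1, and 22 cells with at least 3 members, which held 473 and of which 3 held Cd209a and 19 Fscn1. In the Nrp1L/L library 7 cells were of the first kind, with 46 Ccl17 UMIs and 1 with Cd209a, and 3 of the second, with 27 UMIs.

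**Figure D2:**
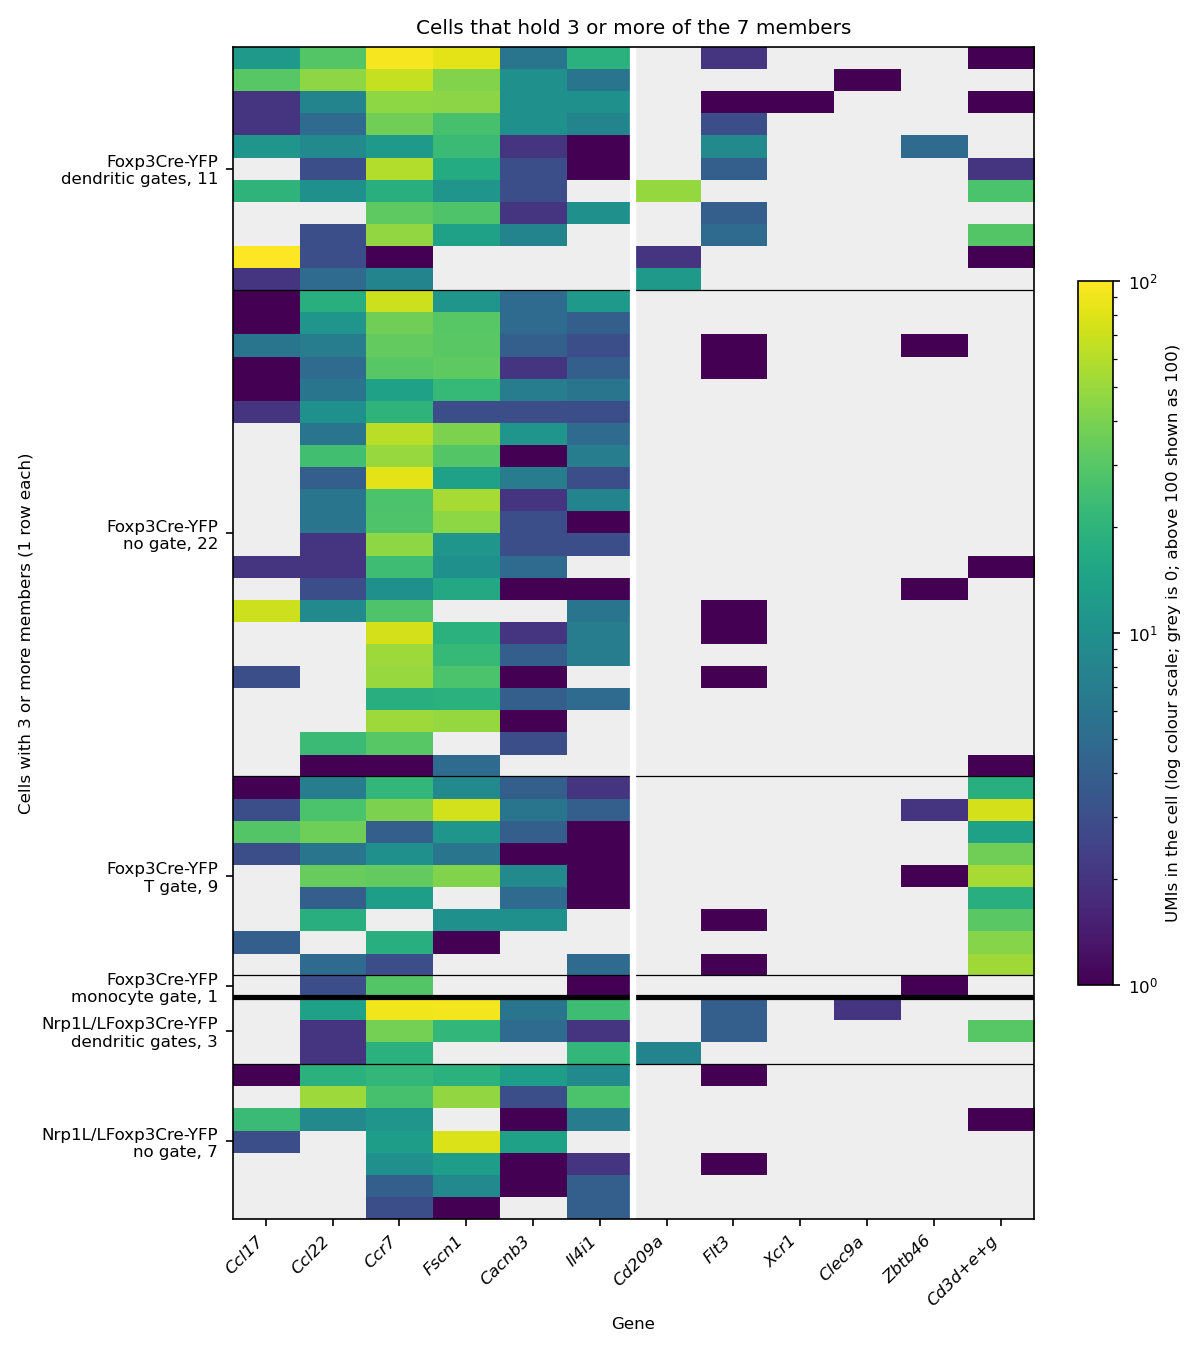
Each row is 1 cell that holds at least 3 of the 7 members, with UMIs of members and marker genes in colour (capped at 100) for the control (43 cells) and Nrp1L/L (10 cells) libraries. Ccr7 is present in 42 of the 43 control cells and Cd209a in 3.

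Genes of dendritic cell maturation were higher in the cells with 3 or more members than in the other cells of the dendritic gates. Of a list of 26 such genes that holds none of the members, all 22 that were measured were at least 1.5-fold higher in the control dendritic-gate cells with 3 or more members. Their median log2 ratio was 3.31, where 19.4% of all 5156 genes were that much higher, 35% were that much lower and the median was -0.22. In the control cells of no gate, without the melanocyte-gene barcode, 24 of 24 were higher with a median of 4.21, against 20.8% of all genes higher and 40.6% lower. Both comparisons share the other cells of the dendritic gates as their reference, and the difference between the sets was not tested. The cells were picked by genes of dendritic cell migration, and the list was chosen with earlier results of these data known. The counts are therefore a description and not an independent check.

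The largest ratios were for Ccl5, a chemokine of T cells and mature dendritic cells, at 134-fold in the dendritic-gate cells and 222-fold in the cells of no gate. Il12b, a subunit of interleukin 12, was 22.8-fold and 18.3-fold higher, and Cd200, an inhibitory surface ligand, 20.2-fold and 47.9-fold. Relb, an NF-kB subunit, was 11.2-fold and 24.2-fold higher, and Socs2, a suppressor of cytokine signalling, 9.31-fold and 22.7-fold. Among surface molecules of T cell costimulation and inhibition, Cd40 was 14.4-fold and 6.40-fold higher, Cd86 3.87-fold and 3.75-fold, and Cd274, which encodes PD-L1, 2.79-fold and 10.1-fold. Of the 11 dendritic-gate cells 3 also passed the T cell gate, and CD3 genes were detected in 6. Without T-gate cells on either side, 8 cells stood against 83, 21 of 21 measured maturation genes were at least 1.5-fold higher with a median of 3.12, against 18.9% of all genes, and Ccl5 was 193-fold higher.

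The other lists are given for the same comparisons, first in the dendritic-gate cells and then in the cells of no gate without the melanocyte-gene barcode. Of the regulatory T cell list, 6 of 6 measured genes were higher with a median of 2.34, and then 3 of 4 with a median of 1.91, and 0 were lower in either. Among them Tnfrsf4, a costimulatory receptor, was 13.5-fold and 10.1-fold higher. Without T-gate cells 2 of that list were measured in the dendritic-gate cells, Tnfrsf4 and Tnfrsf18, and both were higher, while Ctla4, an inhibitory receptor of T cells, went from 70 UMIs in the 11 cells to 0 in the 8. Of 6 measured effector chemokine receptors 1 was higher and 1 lower, and then 0 and 5, with medians of -0.11 and -2.41. Of 15 measured genes of actin bundling and migration 4 were higher and 1 lower, and then 5 and 6. For naive and central memory T cells, 1 of 4 measured genes was higher and 2 lower, and then 1 and 3, with medians of -1.12 and -1.55. For amino acid catabolism, 0 of 3 measured genes were higher and 1 lower, and then 1 and 2, with medians of -0.56 and -2.45. No gene of the list of other CCR7 and CCR4 partners was measured in either.

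In Nrp1L/L, 15 of 18 measured maturation genes were higher and 1 lower in the dendritic-gate cells with 3 or more members, against 23.3% of all genes higher and 31.7% lower. In the cells of no gate 12 of 18 were higher and 2 lower, against 18.8% and 38.6%. Set between genotypes, in the cells with 3 or more members outside the T cell gate and without the melanocyte-gene barcode, 1 of 25 was higher and 9 were lower in Nrp1L/L, with a median of -0.33, against 22.6% and 25.1%. With that barcode 5 were higher and 4 lower, against 19.8% and 35.4%, so 1 barcode changed the balance.

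**Figure D3:**
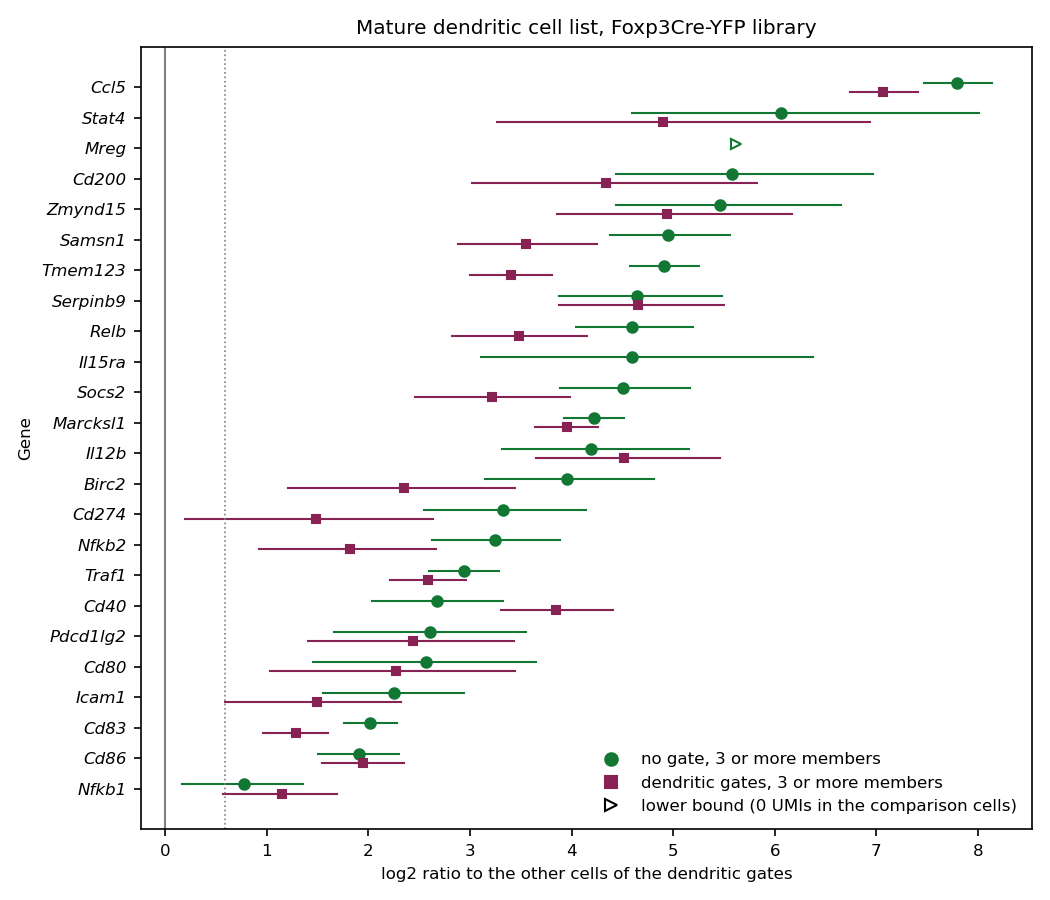
Log2 ratio of each maturation gene in control cells with 3 or more members over the other cells of the dendritic gates, for cells in the dendritic gates and cells of no gate. All 22 measured genes of the dendritic-gate set lie at or above 1.5-fold, with a median of 3.31.

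Ccr7 and Ccr4 were followed in T cells, where CCR7 marks naive and central memory cells. Ccr7 had 583 UMIs in the control T cell gate and 329 in Nrp1L/L, 117 and 61.2 CPM, a log2 ratio of -0.94 (-1.14 to -0.74). All 6 members measured in the gate were at least 1.5-fold lower in Nrp1L/L, against 12.7% of all genes, among them Ccl22 with 158 and 2 UMIs and Fscn1 with 201 and 26. The gate held 12 control cells and 1 Nrp1L/L cell with 3 or more members. Their median was 13918.5 UMIs in control, against 7774.5 in the other T cells, with medians of 30 and 29 CD3 UMIs.

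In the T cells without a UMI of Ccl17, Ccl22, Fscn1, Cacnb3 or Il4i1, the Ccr7 levels of the libraries were closer. That left 415 of 452 T cells in control and 753 of 766 in Nrp1L/L, and Ccr7 had 280 and 291 UMIs in them, 64.1 (56.8 to 72.0) and 55.4 CPM (49.2 to 62.1). The log2 ratio was -0.21 (-0.45 to 0.03), which includes no difference. In CD8 cells among them Ccr7 stood at 79.1 and 53.2 CPM, a log2 ratio of -0.57 (-0.86 to -0.28), and in CD4 cells at 39.4 and 61.9 CPM, 0.65 (-0.53 to 1.96). In Treg-like cells, with Il2ra plus Ikzf2 of at least 2 and no CD8, it stood at 57.5 and 57.1 CPM, and in the remaining T cells at 13.3 and 59.3 CPM, 2.15 (1.13 to 3.35). With all cells of a subset the log2 ratios were -0.56 (-0.82 to -0.31) in CD8, 0.74 (-0.45 to 2.05) in CD4, -1.54 (-2.16 to -0.96) in Treg-like and -1.79 (-2.24 to -1.35) in the remaining cells, at 197 and 57.0 CPM. Leaving out the cells with dendritic genes thus left 9 of the 165 control UMIs of the remaining cells and turned their direction, while the CD8 ratio moved little. Ccr7 was detected in 18.8% and 10.8% of these T cells, and in 10.3% and 8.05% after thinning, while natural killer cells held it in 8.33% and 3.74% at lower median depths of 5515.5 and 4301 UMIs.

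**Figure D4:**
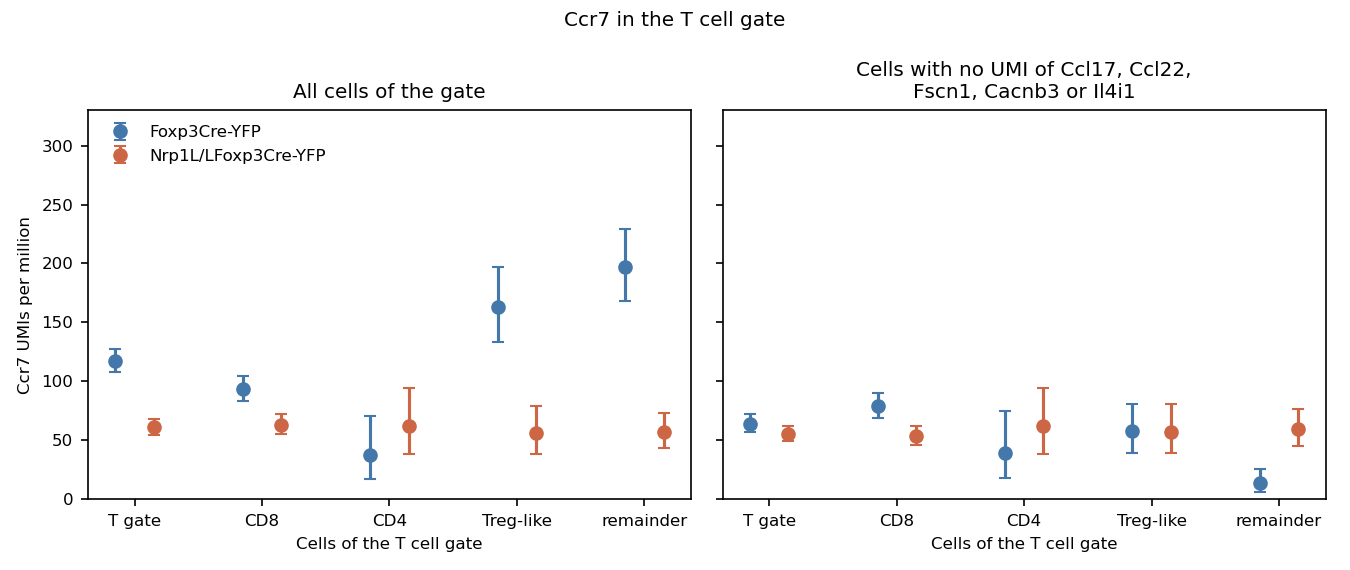
Ccr7 in CPM in the T cell gate and its subsets, with exact 95% Poisson intervals as bars, for all cells and for cells with no UMI of the dendritic members. The T cell gate stands at 117 in control against 61.2 in Nrp1L/L for all cells, and at 64.1 against 55.4 for the second set.

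T cells with Ccr7 more often held genes of naive and central memory cells. Tcf7, a transcription factor of those states, was in 33.3% (23.1 to 44.9) of the 78 control cells with Ccr7 and in 16.0% (12.3 to 20.4) of the 337 others, and in Nrp1L/L in 48.1% of 81 and 18.3% of 672. Satb1, a chromatin organizer, was in 35.9% and 13.6% in control and in 43.2% and 20.5% in Nrp1L/L. The intervals of the 2 sets did not overlap in either library for these 2 genes, and their median depths were 7008 and 7269 UMIs in control and 4966 and 5153.5 in Nrp1L/L. For Lef1, another transcription factor of naive cells, the shares were 26.9% and 18.4% in control, with intervals that overlap.

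Ccr4, the receptor of both chemokines, was scarce. It had 4 UMIs in 4 control cells and 9 in 6 Nrp1L/L cells, all in the T cell gate, at 0.806 (0.220 to 2.06) and 1.67 CPM (0.765 to 3.18), so a difference was not detectable at this depth. The 4 control cells were Treg-like by Il2ra and Ikzf2, and 1 of them, with 21 UMIs of Ccr7, held all 7 members. The only Foxp3 among these 4 cells was 1 UMI, in a cell with 5 UMIs of Cd4. Of the 6 Nrp1L/L cells 1 was Treg-like, 2 were CD4, 1 was CD8 and 2 were of the remainder. The CCR7 ligands Ccl19, Ccl21a, Ccl21b and Ccl21c, and the scavenging receptors Ackr2 and Ackr4, had 0 UMIs in both libraries.

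The genes most like each member were taken from Pearson correlations of log counts per 10000 UMIs over 1359 cells outside the T cell gate, averaged over the libraries. The cells share libraries and depth, so the values are a description. Ccr7, Ccl22, Fscn1, Cacnb3 and Il4i1 were among each other's 5 closest genes, except that Ccl22, at 0.672, was not among the 5 closest to Fscn1. Fscn1 and Cacnb3 stood at 0.906, Ccr7 and Fscn1 at 0.790, and Ccl22 and Cacnb3 at 0.715. Nudt17, of the Nudix hydrolase family, stood closest to Fscn1, at 0.915. Ccl17 was closest to Mgl2, a lectin of cDC2 cells and macrophages, at 0.397, then to Ramp3 at 0.353 and Ccl22 at 0.340. Over the 145 cells of the dendritic gates alone, Ccl22 was closest to Ccr7, at 0.843, and Ccl17 to Axl, at 0.515. The Axl value averaged 0.364 in control and 0.666 in Nrp1L/L, where 32 of the 33 Ccl17 UMIs of these gates were in 1 cell. In control Mgl2 was closer to Ccl17 than Axl, at 0.412.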

How the data were processed

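Whole-transcriptome UMI counts per gene and cell were deposited by the authors for 2 libraries of CD45+ tumour cells, 1 per genotype, made on a GemCode single-cell instrument; Cell Ranger 1.3 and mm10 are named in the submitters' processing notes. The raw counts were used as deposited. Scrublet in scanpy 1.11.5 was run per library with an expected doublet rate of 2%; it called 8 of 1310 control barcodes and 3 of 1301 Nrp1L/L barcodes (0.231%, too few to have worked), so the 8 control barcodes and, in Nrp1L/L, the 26 highest-scoring barcodes were left out. 3 barcode sequences occurred in both libraries. UMIs were summed per gate and library in Python 3.11.15 with scipy 1.17.1, numpy 2.4.6 and pandas 2.3.3. Log2 ratios have exact conditional binomial intervals, share differences Newcombe intervals, and ratios to 0 use a floor of 3 counts over the gate. A gene was measured with at least 20 UMIs over both libraries and past the fold at 1.5-fold. Thinning drew 2500 UMIs per cell, as the mean of 20 draws. There was no test, as each genotype has 1 library. The members and lists were chosen with earlier results of these data known. Named genes were the 7 members, genes of the fixed lists and the 5 genes most correlated with each member among genes found in at least 20 cells outside the T cell gate. The ratio and share calculations were tested on simulated data. Alternatives covered doublets, gate thresholds, overlap of gates, depth, scaling, count minimum and single cells.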

Additional observations from a re-analysis of the deposited data

Results flagged for a closer look

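In some members the log2 ratio of Nrp1L/L over control had opposite signs in 2 gates, and none of these differences was tested. Ccr7 was 1.49 in the cDC1 gate, against -3.65 in monocytes and -0.94 in the T cell gate. Of the 59 Ccr7 UMIs in control monocytes 29 were in 1 cell and 16 in another. Fscn1 was 0.477 in the cDC2 gate and 1.93 in the cDC1 gate, against -3.07 in the T cell gate. Il4i1 was 1.47 in the cDC2 gate and 2.55 in the cDC1 gate, against -2.92 in the T cell gate. The cDC1 values of Ccr7, Fscn1 and Il4i1 (24 of 26 UMIs) and the cDC2 value of Fscn1 rested mostly on 1 Nrp1L/L cell; in cells of exactly 1 gate the cDC1 value of Il4i1 was -0.95. The 2 highest cells held 24 and 21 of the 49 Il4i1 UMIs in cDC2, and in the T cell gate the cells with dendritic genes were more numerous in control.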

How the results depend on the processing

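No paired analysis was possible because each genotype has 1 library. With doublets kept, and with scaling by the median of gene ratios, 23 of 23 member log2 ratios held. Ccl17 in the cDC2 gate stayed far below 0 under every alternative run. In that gate, stricter gates gave -0.063 for Ccl22, 0.51 for Ccr7, 1.12 for Fscn1 and 2.16 for Il4i1. Cells of exactly 1 gate gave -5.29 or lower for Ccl17, -2.91 for Ccl22, -0.95 for Ccr7 and -3.30 or lower for Fscn1. Thinned cells gave -0.24 for Ccr7 and -0.13 for Fscn1, and gates called on thinned counts gave -2.19 for Ccl22, -0.98 for Ccr7, -1.49 for Fscn1 and -2.85 for Cacnb3. In the cDC1 gate, cells of exactly 1 gate gave -3.21 or lower for Ccr7, -2.81 or lower for Fscn1 and -0.95 for Il4i1. Genes past the fold numbered 2269 in cDC2, 1819 in cDC1, 2529 in monocytes and 2660 in T cells, against 1051, 703, 1426 and 1810 with at least 50 UMIs and 4267, 4175, 4026 and 3997 with at least 5. The remaining alternatives were chosen after seeing the data. Leaving out the highest cell gave -2.89 for Ccl22, -0.73 for Ccr7 and -1.15 for Fscn1 in cDC2, and -2.02 or lower for Ccr7 and -1.81 or lower for Fscn1 in cDC1. Leaving out T cells with the dendritic genes gave -0.21 for Ccr7 there. Leaving out the melanocyte-gene barcode gave 3.23% of control cells with 3 or more members. Without T-gate cells, 21 of 21 maturation genes were higher in the control dendritic-gate cells with 3 or more members. The cause of the shifts was not tested. The 9 cDC1 and 35 cDC2 cells of Nrp1L/L limit every ratio in those gates.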

Other observations

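Ccl1 and Ccl8, both ligands of CCR8 in mice, had higher levels over all cells in the control library. Ccl1 had 582 UMIs in 37 control cells and 118 in 7 Nrp1L/L cells, and 519 and 111 of these lay in the T cell gate. Ccl8 had 4881 and 2076 UMIs, 378 and 237 CPM over all cells. In the dendritic gates it ran the other way, with 10 UMIs in control and 142 in 4 Nrp1L/L cells, 8.23 and 317 CPM, as it did in monocytes, at 18.6 and 42.0 CPM. Ccr8 itself stood at 8.06 and 8.18 CPM in the T cell gate. In the macrophage gate, 7 control cells held 107 Ccl17 UMIs, with 53 and 49 in 2 of them, and 1 Nrp1L/L cell held 32.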
